A study of Mus musculus with 9 samples.

Results

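Ect2, Racgap1, Prc1, Anln, Cit and Cep55 encode proteins that carry a cell from the end of mitosis through the physical separation of its daughters. Their messenger RNA was followed in whole mouse liver at hepatectomy and 40 hours after it, in vehicle-treated mice and in mice given an inhibitor of the phosphatase SHP2. The 6 genes were the rows of the count table with these gene names, 6 of 43346 genes listed, and all 6 were among the 15024 genes with enough counts to be tested.

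Cytokinesis begins when the mitotic spindle leaves a bundle of overlapping microtubules between the separating chromosomes, which marks where the small GTPase RhoA is switched on at the cell cortex. RhoA drives an actomyosin ring that pinches the cell, and the remaining bridge matures into a midbody that is cut by the ESCRT machinery. Hepatocytes are known for leaving this last part of division unfinished in many cycles, so that adult liver holds binucleated and polyploid cells. Counts of nuclei per cell were not analysed here, and the values below are of messenger RNA only.

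All mice were wild-type, labelled C57/BL6 (C57BL/6J in the study's methods), 12 weeks old, and underwent 70% partial hepatectomy. The baseline group held 3 livers of vehicle-treated mice, sampled as the specimen resected at 0 h. The vehicle group held 3 liver remnants of vehicle-treated mice at 40 h, and the NSC group held 3 remnants at 40 h of mice that received NSC87877 at 7.5 mg/kg per dose. NSC87877, abbreviated NSC, blocks SHP2 and also the related phosphatase SHP1, and was given i.p. Vehicle or NSC was given 2 times daily from before surgery, starting 12 h before it by the sample records. No NSC-treated baseline was analysed here, and both 40 h groups were therefore set against the same 3 vehicle-treated baseline livers. The labels do not say whether a baseline specimen and a remnant came from the same mouse.

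Library depth was between 23997363 and 42887589 counted fragments, with NSC replicate 3 the shallowest. Each liver was read as bulk tissue, where fewer cells of a type and less RNA per cell cannot be told apart. Hepatocyte markers (Alb, Ttr, Apoa1, Cyp2e1, Serpina1c and Cps1) summed to between 90077 and 127124 CPM (counts scaled to a common library total) in every library, a sum made up mostly of Alb. The adjusted p of Alb was between 0.738 and 0.951 in the 3 comparisons, whereas the log2 change of Cyp2e1 was -1.002 with vehicle (adjusted p = 0.00509, edgeR) and -1.03 with NSC (adjusted p = 0.00307), that of Serpina1c -0.81 (adjusted p = 0.0349) and -0.72 (adjusted p = 0.0408), and that of Cps1 -1.25 with NSC (adjusted p = 0.00144). Kupffer cell markers, 5 of 5 detected, summed to 119 to 181 CPM at baseline, 113 to 184 in vehicle remnants and 223 to 332 in NSC remnants, with NSC replicate 1 the highest. Cholangiocyte markers summed to 37.8 to 40.6 CPM at baseline, 76.0 to 114 with vehicle and 79.0 to 121 with NSC, stellate cell markers to 167 to 204, 251 to 308 and 203 to 330, and neutrophil markers to 1.68 to 6.03, 6.68 to 12.5 and 9.16 to 13.8. The cholangiocyte sum was mostly Spp1, at means of 33.2, 73.2 and 84.3 CPM in the 3 groups. Epcam changed by -0.44 with vehicle and -0.27 with NSC (log2), below baseline unlike the other 4. Between NSC and vehicle remnants 2 of the 5 were higher. Krt19 (-1.08, adjusted p = 0.119, edgeR) and Krt7 (-1.02, adjusted p = 0.237) were among the lower. The stellate sum was mostly Dcn, with 11817, 17909 and 16795 counts in the 3 groups. Of the other stellate markers, Col1a1 had 358, 5010 and 855 counts and Des 334, 654 and 378. Lrat had 1847, 1945 and 1239 and Reln 3740, 4860 and 3217, so that the large Col1a1 change was not shared by the list. Endothelial markers lay between 98.4 and 200 CPM in all livers. NSC replicate 1 was the highest of all livers for endothelial (200), stellate (330) and neutrophil (13.8) markers, as for Kupffer cell markers. It was the lowest NSC remnant for hepatocyte markers (94278 CPM) and lay between the other NSC remnants for cholangiocyte markers (82.8 CPM). The part of these cell types in the results below was not tested. NSC replicate 1 stood apart from the other livers of its group, with a root mean square difference in log2 CPM over tested genes of 0.74 and 0.83 to NSC replicates 2 and 3, against 0.43 to 0.59 between all other livers of a shared group. By a chi-square per gene on the counts, the values were 96.3 and 146, against 23.9 to 102 between those other livers. On that measure only the value to NSC replicate 3 lay beyond the range. Changes of the 6 genes with NSC, and differences of the other cytokinesis genes between NSC and vehicle, are given with and without NSC replicate 1. Other fold changes with NSC are given only with it.

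The promoters of the 6 genes are shown because 5 of the 6 moved together after hepatectomy. Genes with peak expression late in the cell cycle commonly carry the cell cycle genes homology region, a TTTGAA or TTCGAA element read by the DREAM and MuvB complexes, and often CCAAT boxes bound by NF-Y. RefSeq windows of GRCm38.p6, which cover 250 bases before a start and 50 bases from it, were found for 6 of 6 genes, and for Ect2, Prc1 and Cep55 there were 2 starts each. The stretches below run 5′ to 3′ from 150 bases before the most upstream start through its first 30 bases, and capitals mark TTTGAA or its reverse complement TTCAAA, and CCAAT or its reverse complement ATTGG.
Ect2 promoter, chr3:27153849-27154028, minus strand: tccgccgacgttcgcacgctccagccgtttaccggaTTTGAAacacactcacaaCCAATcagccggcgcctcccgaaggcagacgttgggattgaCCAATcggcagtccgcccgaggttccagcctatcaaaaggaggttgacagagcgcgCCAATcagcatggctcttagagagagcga
Racgap1 promoter, chr15:99651627-99651806, minus strand: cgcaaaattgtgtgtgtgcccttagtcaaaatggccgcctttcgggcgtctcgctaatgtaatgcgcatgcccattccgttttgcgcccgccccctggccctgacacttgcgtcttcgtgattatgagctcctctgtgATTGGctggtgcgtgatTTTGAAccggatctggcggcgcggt
Prc1 promoter, chr7:80294301-80294480, plus strand: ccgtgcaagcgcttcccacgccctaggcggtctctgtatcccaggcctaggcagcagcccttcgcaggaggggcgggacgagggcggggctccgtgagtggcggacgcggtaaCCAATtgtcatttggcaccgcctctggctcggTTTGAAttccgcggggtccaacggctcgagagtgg
Anln promoter, chr9:22389177-22389356, minus strand: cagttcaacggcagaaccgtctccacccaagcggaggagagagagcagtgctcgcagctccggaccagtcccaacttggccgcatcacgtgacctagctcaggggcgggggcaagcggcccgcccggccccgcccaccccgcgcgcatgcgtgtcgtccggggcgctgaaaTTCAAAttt
Cep55 promoter, chr19:38054834-38055013, plus strand: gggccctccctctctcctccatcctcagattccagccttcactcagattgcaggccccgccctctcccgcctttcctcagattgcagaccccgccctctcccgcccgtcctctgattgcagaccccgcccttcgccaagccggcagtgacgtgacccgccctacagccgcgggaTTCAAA
Cit promoter, chr5:115845506-115845685, plus strand: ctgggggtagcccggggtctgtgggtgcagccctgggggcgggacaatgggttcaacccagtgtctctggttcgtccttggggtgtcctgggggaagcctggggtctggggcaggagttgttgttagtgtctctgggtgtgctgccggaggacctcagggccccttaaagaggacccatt
TTTGAA, on either strand, was in a window of 5 of the 6 genes, Cit being the other, and TTCGAA was in none. Of all 27025 genes with a window in the reference, 20.2% held TTTGAA in at least 1 window, 1.80% held TTCGAA and 21.7% held either, and of all 32851 windows 17.9%, 1.56% and 19.2% did. Counted from 1 at the most upstream start, the element began at position -114 in Ect2, 6 in Racgap1, -5 in Prc1, 22 in Anln and 25 in Cep55. Further copies began at 40 in Ect2 and 29 in Anln and reached past the end of the printed stretch. CCAAT was in the windows of 3 of the 6 genes, Ect2, Racgap1 and Prc1, against 41.1% of all genes with a window and 37.4% of all windows. In Prc1 a CCAAT began at -37, upstream of the TTTGAA at -5, and Ect2 held 3 copies, beginning at -96, -55 and 2. The RefSeq start used for Cit lies downstream of the start that the count table gives, and a missing match says only that these letters were not in this window.

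Ect2 encodes the exchange factor that loads RhoA with GTP at the cell equator (chr3:27097222-27153878, GRCm38 coordinates of the count table). Ect2 stood at 1.90, 1.80 and 2.28 CPM in the baseline livers, at 30.03, 27.5 and 22.9 in the vehicle remnants and at 17.9, 85.3 and 65.6 in the NSC remnants. Every remnant lay far above every baseline liver, and of the NSC remnants replicate 1 lay below all vehicle remnants and the other two above them. Relative to baseline, Ect2 rose by a log2 fold change of 3.75 ± 0.54 (SE, adjusted p = 0.00228, edgeR quasi-likelihood test) in vehicle-treated mice and of 4.82 ± 0.56 (adjusted p = 0.000582) in NSC-treated mice. It was the gene with the highest baseline level per length among the 6, at 0.370 ± 0.0487 FPKM (SD, n = 3), against 0.0148 to 0.0678 for the other 5, all of which it exceeded in every baseline liver.

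Racgap1 encodes the GTPase-activating subunit of centralspindlin, the complex that brings ECT2 to the midzone (chr15:99620496-99651656). Its values were 0.0948, 0.214 and 0.561 CPM at baseline, 23.9, 29.9 and 17.6 in vehicle remnants and 8.79, 63.7 and 50.1 in NSC remnants. Baseline livers held only 3, 7 and 17 counts, and the order of the NSC remnants was that of Ect2. Racgap1 rose by 6.36 ± 0.95 (log2, SE, adjusted p = 0.00347, edgeR) in vehicle-treated mice and by 7.14 ± 0.96 (adjusted p = 0.00156) in NSC-treated mice. Without baseline replicate 3, which held most of the baseline counts, the rises were 7.23 and 8.01, and without baseline replicate 1 they were 5.94 and 6.72.

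Prc1 encodes the crosslinker of antiparallel midzone microtubules (chr7:80294450-80316259). Prc1 was read at 0.158, 0.336 and 0.165 CPM at baseline, at 49.98, 45.4 and 38.3 in vehicle remnants and at 16.7, 142 and 105 in NSC remnants. The spread between NSC remnants was the widest of the 6 genes on the CPM scale, with replicate 1 again below the vehicle remnants. Prc1 rose by 7.63 ± 0.97 (log2, SE, adjusted p = 0.00186, edgeR) with vehicle and by 8.61 ± 0.99 (adjusted p = 0.000839) with NSC. These were the largest of the 6 with all libraries, but without baseline replicate 1 Cep55 lay above Prc1, at 7.96 against 7.44 with vehicle and 8.93 against 8.42 with NSC, and baseline livers held only 5, 11 and 5 counts of Prc1. Of the 15024 genes tested, it ranked 16 from the highest fold change with vehicle and 14 with NSC.

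Anln encodes anillin, the scaffold that ties RhoA, actin, myosin and septins together in the contractile ring (chr9:22331214-22389206). Anln was at 0.474, 0.305 and 0.363 CPM at baseline, at 22.6, 21.0 and 17.4 in vehicle remnants and at 10.8, 61.1 and 42.9 in NSC remnants. The groups at 40 h overlapped in the same manner as for the genes above. The rise was 5.73 ± 0.70 (log2, SE, adjusted p = 0.00117, edgeR) with vehicle and 6.64 ± 0.71 (adjusted p = 0.00046) with NSC.

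Cep55 encodes the midbody protein that recruits ALIX and TSG101, and through them the ESCRT-III filaments that cut the bridge (chr19:38055025-38074425). At baseline Cep55 had 3, 0 and 1 counts in the 3 livers, and at 40 h it reached 4.65, 5.03 and 5.09 CPM in vehicle remnants and 3.42, 11.8 and 13.7 CPM in NSC remnants. No remnant came near a baseline liver, and the vehicle remnants lay close together. With the libraries of a group pooled, the ratio of vehicle to baseline counts, scaled for depth, was 116 with an exact 95% interval of 45.1 to 428, and that of NSC to baseline was 218 (84.8 to 802), where the intervals cover counting error only. The fitted rise was 6.74 ± 0.74 (log2, SE, adjusted p = 0.000249, edgeR) with vehicle and 7.71 ± 0.74 (adjusted p = 7.85e-05) with NSC. These sizes depended on which baseline livers were kept. Without baseline replicate 1 they were 7.96 and 8.93, and without baseline replicate 2, which had 0 counts, they were 6.17 and 7.14.

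Cit encodes citron kinase, which organizes RhoA signaling and keeps the midbody stable in late cytokinesis (chr5:115845278-116008947). Cit had the smallest changes of the 6 against baseline. It was at 0.790, 0.886 and 0.891 CPM at baseline, at 1.78, 2.00 and 1.59 in vehicle remnants and at 1.68, 1.12 and 1.57 in NSC remnants. Every remnant lay above every baseline liver, and NSC replicate 1 was the highest of its group instead of the lowest. The change was 1.06 ± 0.29 (log2, SE, adjusted p = 0.0211, edgeR) with vehicle, past the p threshold but not the fold threshold of 1.5, and 0.76 ± 0.30 (adjusted p = 0.0636) with NSC. The former p passed 0.05 when a library was left out in 5 cases, at 0.0741, 0.0501 and 0.0618 without baseline replicates 1, 2 and 3 and at 0.0609 and 0.0654 without vehicle replicates 1 and 2, and the latter fell to 0.0489 without NSC replicate 2. The 95% interval of the vehicle change was 0.42 to 1.70 for Cit, and the lowest bound among the other 5 genes was 2.51, for Ect2. Cit had 25 to 77 counts per library, so that its levels carry more counting error than those of the other genes at 40 h.

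**Figure D1:**
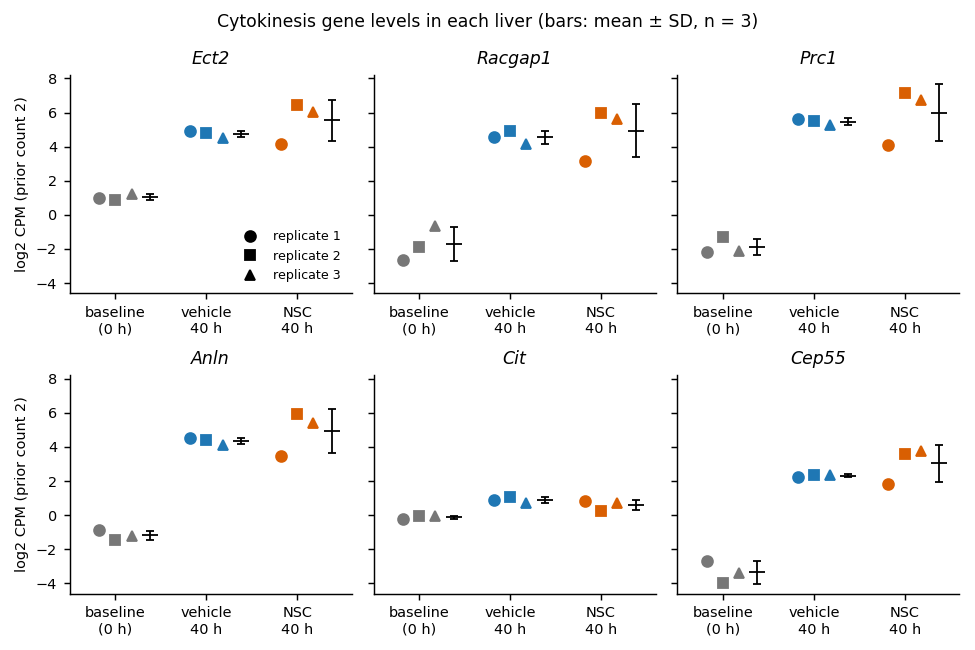
Level of each of the 6 genes in every liver, as log2 CPM with a prior count of 2 on a shared vertical axis, with baseline livers in grey, vehicle remnants in blue and NSC remnants in orange. Symbols give the replicate number and bars the mean ± SD of 3 livers. All genes but Cit sit far higher in every remnant than at baseline, and NSC replicate 1 lies below the vehicle remnants in those 5 genes.

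A gene was called when its adjusted p was under 0.05 and its absolute log2 fold change over 1.5. In vehicle remnants against baseline, 5 of the 6 genes were called, all higher, where 7.22% of all tested genes were called and 5.03% were called higher. In NSC remnants against baseline the same 5 genes were called higher, where 8.13% of all genes were called and 5.38% were called higher. By adjusted p alone, 6 of 6 passed with vehicle and 5 of 6 with NSC, against 23.7% and 34.7% of all genes. The median log2 fold change of the 6 was 6.04 with vehicle and 6.89 with NSC, and that of all tested genes was 0.01 in both. The comparisons share their baseline livers, so that the second is no independent repeat of the first. Without NSC replicate 1 the changes with NSC against baseline (log2, edgeR) were 5.24 for Ect2, 7.62 for Racgap1 and 9.10 for Prc1. For Anln, Cep55 and Cit they were 7.08, 8.11 and 0.65. The count of called members was then 5 of the 6, where 8.49% of all genes were called.

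Between NSC and vehicle remnants, 0 of the 6 genes were called, where 0.02% of all genes were called and 0.0399% passed by adjusted p alone. None of the 6 had an unadjusted p under 0.05 with edgeR, and DESeq2 and edgeR's exact test also called 0 of the 6. The estimates of Ect2, Racgap1, Prc1, Anln and Cep55 were all above 0, between 0.78 ± 0.66 (log2, SE, Racgap1) and 1.07 ± 0.47 (Ect2), and that of Cit was -0.30 ± 0.28. Adjusted p ran from 0.259 for Ect2 to 0.586 for Cit. The 95% intervals reached from -0.01 to 2.14 for Ect2, from -0.02 to 1.95 for Cep55, from -0.27 to 2.09 for Anln, from -0.52 to 2.48 for Prc1 and from -0.78 to 2.33 for Racgap1. That of Cit was -0.92 to 0.32, so that all 6 intervals included 0 and most also included changes past the fold threshold.

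The size of that difference depended on which NSC liver was left out. Without NSC replicate 2 the estimates fell to 0.64 for Ect2, 0.45 for Prc1, 0.40 for Anln, 0.80 for Cep55 and 0.30 for Racgap1, and without NSC replicate 3 to 0.94, 0.83, 0.82, 0.63 and 0.60 in the same order, with adjusted p between 0.396 and 0.874 (edgeR). Without NSC replicate 1, the fitted difference between NSC and vehicle remnants was 1.49 ± 0.17 (log2, SE, adjusted p = 0.000436, edgeR) for Ect2, 1.47 ± 0.18 (adjusted p = 0.000858) for Prc1 and 1.35 ± 0.18 (adjusted p = 0.00147) for Anln. For Cep55 it was 1.37 ± 0.26 (adjusted p = 0.00948) and for Racgap1 1.25 ± 0.31 (adjusted p = 0.0461), whereas Cit stood at -0.42 ± 0.32 (adjusted p = 0.434). By adjusted p alone 5 of the 6 genes then passed, where 6.46% of all genes passed, and none exceeded a fold change of 1.5 on the log2 scale, where 1.18% of all genes were called. No label gives a ground to leave any of these libraries out, and the values with all 9 libraries are the main ones.

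**Figure D2:**
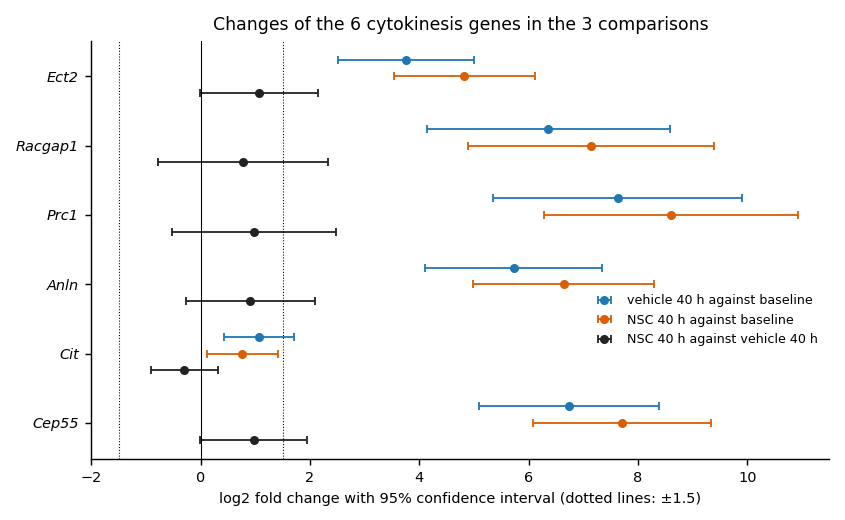
Log2 fold change of each gene with its 95% confidence interval in the 3 comparisons, from the edgeR fit of all 9 libraries, with dotted lines at the fold threshold. In 5 genes the intervals against baseline lie wholly above 1.5, those of Cit do not, and those between NSC and vehicle all include 0.

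Each gene was next set beside a partner of its protein, on the FPKM scale, which divides counts by gene length and depth and thus allows levels of different genes to be compared. Kif23, the kinesin subunit of centralspindlin, rose with Racgap1, by 4.10 ± 0.58 (log2, SE, adjusted p = 0.00146, edgeR) with vehicle. The ratio of Racgap1 to Kif23 was 0.0580 to 0.514 in baseline livers, where both had few counts, and 0.672 to 1.59 in the 6 remnants. Kif4, the kinesin that PRC1 recruits to the midzone, rose by 5.61 ± 0.80 (adjusted p = 0.00259), and the ratio of Prc1 to Kif4 in remnants was 1.52 to 2.13. NSC replicate 1 held the lowest ratio among remnants for both pairs.

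Kif14, the kinesin that docks citron kinase at the midzone, rose by 5.67 ± 0.74 (log2, SE, adjusted p = 0.000741, edgeR) with vehicle and 6.10 ± 0.74 (adjusted p = 0.000329) with NSC, and Cit did not follow it. At baseline Kif14 had 6, 1 and 3 counts, and the ratio of Cit to Kif14 was 2.77, 19.2 and 5.97. In vehicle remnants that ratio was 0.190, 0.209 and 0.253, and in NSC remnants 0.483, 0.0600 and 0.131. Cit was thus the more abundant of the pair per length in each baseline liver and the less abundant in each remnant.

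The partners of Ect2, Anln and Cep55 were abundant at baseline already. Rhoa, the GTPase that ECT2 activates, was at 102 ± 10.8 CPM at baseline and 106 ± 11.2 in vehicle remnants (SD, n = 3), a log2 change of 0.06 ± 0.14 (SE, adjusted p = 0.795, edgeR), and the ratio of Ect2 to Rhoa rose from 0.0283 ± 0.00481 to 0.365 ± 0.0575. Rhoa stood at 137 ± 6.06 CPM in NSC remnants, above all other livers, with a log2 change against baseline of 0.42 ± 0.14 (adjusted p = 0.0395) and against vehicle of 0.36 ± 0.14 (adjusted p = 0.204). Pdcd6ip, which encodes ALIX, was at 99.7 ± 3.73, 89.1 ± 7.80 and 79.4 ± 9.32 CPM in the 3 groups in the same order, with a log2 change of -0.16 ± 0.14 (adjusted p = 0.432) with vehicle. Myh9, the heavy chain of nonmuscle myosin that anillin binds, was at 143 ± 28.1, 302 ± 75.2 and 176 ± 52.5 CPM, a change of 1.08 ± 0.26 (adjusted p = 0.0117) with vehicle and 0.30 ± 0.26 (adjusted p = 0.395) with NSC.

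**Figure D3:**
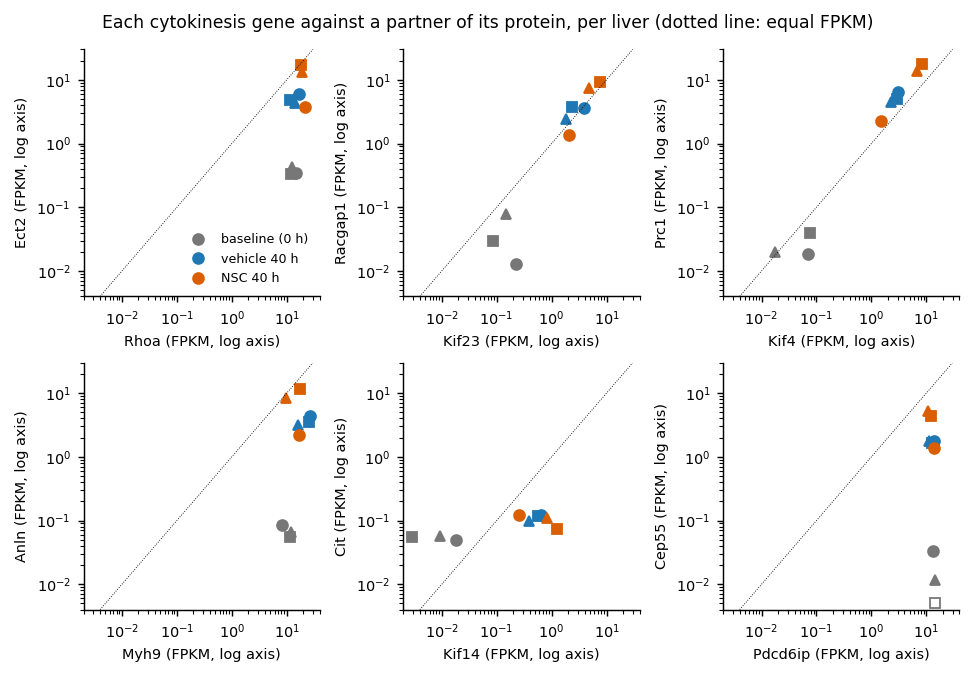
FPKM of each cytokinesis gene against that of a partner in every liver, both axes logarithmic, with colors for groups and symbols for replicates as in the plot of levels, and a dotted line at equal FPKM. An open square marks the baseline liver with Cep55 at 0, drawn at 0.005 because a log axis has no zero. Rhoa and Pdcd6ip span a narrower range than Ect2 and Cep55, Myh9 spans 8.23 to 26.9 FPKM against 0.0543 to 11.53 for Anln, Kif23 and Kif4 move with their member, and Cit spans a narrower range than Kif14.

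A list of 44 further cytokinesis genes gave the context of the 6, and 43 were tested. With vehicle 15 were called higher and 0 lower, and with NSC 14 were called higher and 1 lower, against the 7.22% and 8.13% of all genes above. The median log2 fold change of the 43 was 0.56 with vehicle and 0.82 with NSC. In the chromosomal passenger complex, which corrects spindle attachments and then moves to the midzone, 4 of 4 genes were called higher in both comparisons, from Birc5 at 3.93 ± 0.79 (log2, SE, adjusted p = 0.0114, edgeR, with vehicle) to Aurkb at 7.15 ± 0.80 (adjusted p = 0.000778). All 4 midzone kinesins were called higher as well, from Kif20b at 5.24 ± 0.63 (adjusted p = 0.000949) to Kif14.

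Next to Ect2 and Racgap1, 3 of 5 genes of centralspindlin and RhoA activation were called higher in both comparisons. Plk1, the kinase that licenses the binding of ECT2 to centralspindlin, rose most in this role, by 6.20 ± 1.16 (log2, SE, adjusted p = 0.00929, edgeR) with vehicle, and Rhoa least. Next to Anln, 2 of 15 genes of the contractile ring were called higher with vehicle, where 5.03% of all genes were. A count as small as 2 was not tested against that share. The 2 were the formin Diaph3 at 7.09 ± 0.70 (adjusted p = 0.00019, edgeR) and the septin Sept11 at 1.59 ± 0.20 (adjusted p = 0.000343). The median of the 15 was 0.24. With NSC, Diaph3 was called higher and Myh14, a nonmuscle myosin heavy chain and the smallest in this role, was called lower, at -1.85 ± 0.28 (adjusted p = 0.000607), while with vehicle it was at -0.82 ± 0.27 (adjusted p = 0.0431).

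Next to Cep55 and Cit, 2 of 15 genes of the midbody and abscission were called higher in both comparisons, where 5.03% and 5.38% of all genes were. A count as small as 2 was not tested against those shares. The 2 were Nusap1 at 6.59 ± 1.01 (log2, SE, adjusted p = 0.00397, edgeR, with vehicle) and Shcbp1 at 5.74 ± 0.86 (adjusted p = 0.00304). Nusap1 bundles spindle microtubules, and Shcbp1 binds centralspindlin. The other 13, which include the ESCRT genes Tsg101, Chmp4b and Vps4a, were not called, and the smallest change was -0.35 ± 0.17 (adjusted p = 0.161) for Zfyve19. The median of the 15 was 0.05 with vehicle and 0.25 with NSC. Between NSC and vehicle remnants, 0 of the 43 were called, where 0.02% of all genes were, and the median was 0.30. An unadjusted p under 0.05 (edgeR) was found for 8 of the 43 and for 2929 of all 15024 genes, a like share. Without NSC replicate 1, 3 of the 43 were called, where 1.18% of all genes were. By adjusted p alone 12 then passed, 11 of them higher, where 6.46% of all genes passed. The 3 called without NSC replicate 1 were Nusap1 at 1.79 ± 0.24 (adjusted p = 0.00175), Kif20a at 1.66 ± 0.21 (adjusted p = 0.00109) and Shcbp1 at 1.55 ± 0.28 (adjusted p = 0.0121).

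RefSeq promoter windows were found for 31 of the 44 other cytokinesis genes, and 11 of the 31 held TTTGAA or TTCGAA, where 21.7% of the 27025 genes with a window held either. Among those called with vehicle it was 7 of 10, and among those not called 4 of 21. For the 6 genes shown above it was 5 of 6, and CCAAT was in 14 of the 31 and 3 of the 6. Of the 18 mitotic entry genes compared below, 16 had a window, 11 of them with TTTGAA or TTCGAA and 14 with CCAAT. Of the 18 S phase genes 16 had a window, 3 of them with TTTGAA or TTCGAA and 12 with CCAAT. These counts are a description of letters, without a test.

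**Figure D4:**
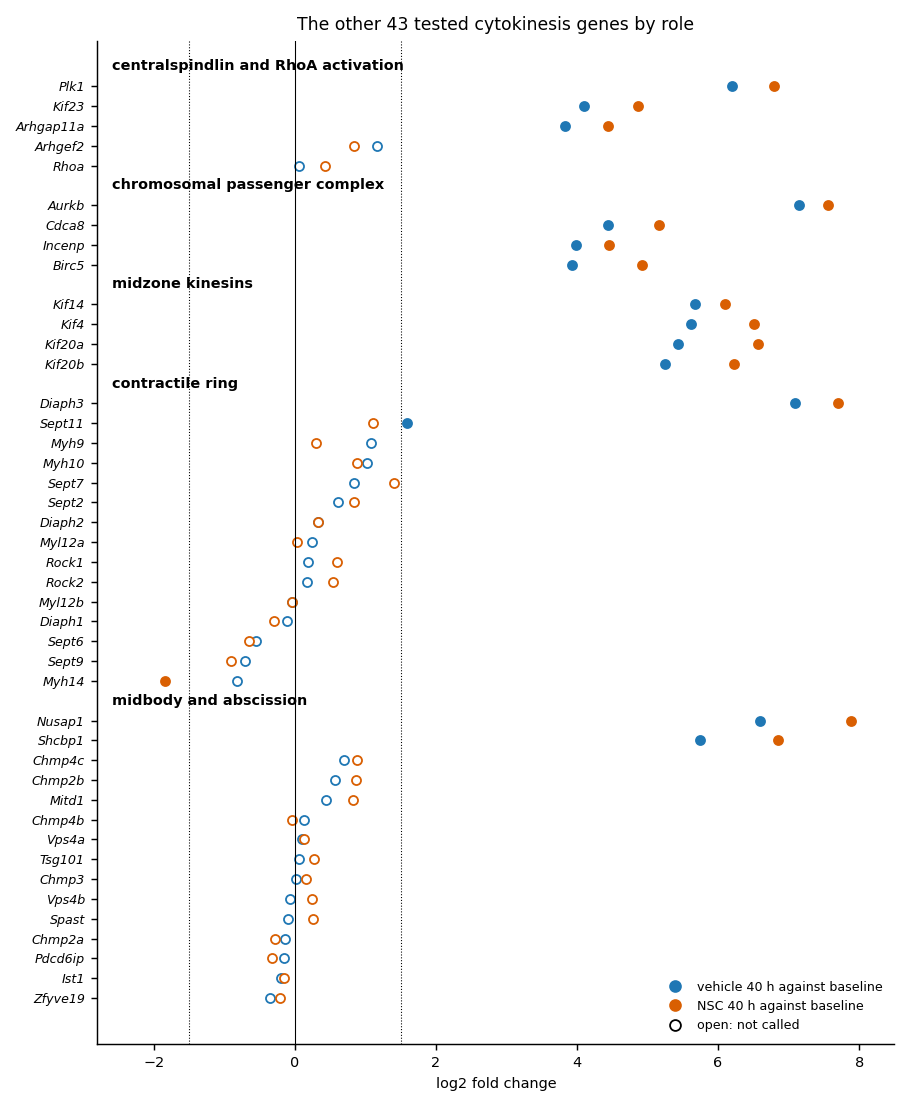
Log2 fold change of the 43 other cytokinesis genes against baseline, grouped by role and ordered by the vehicle value, with blue for vehicle and orange for NSC, filled points for called genes and dotted lines at the fold threshold. Passenger complex and midzone kinesin genes all lie to the right, while most ring and midbody genes lie between the dotted lines.

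The 6 genes were also compared with 18 genes of mitotic entry and exit and 18 of S phase in each liver. As the mean log2 CPM of a list minus its baseline mean, the 5 genes without Cit stood at 5.80, 5.82 and 5.51 in the vehicle remnants and at 4.75, 7.24 and 6.95 in the NSC remnants. The mitotic list stood at 5.26, 5.25 and 4.91 with vehicle and at 3.97, 6.61 and 6.42 with NSC, so that its low liver was again NSC replicate 1. The S phase list stood at 2.31, 2.57 and 2.28 with vehicle and at 2.48, 2.88 and 2.66 with NSC, where NSC replicate 1 lay within the range of the vehicle remnants. The liver with the lowest cytokinesis and mitotic levels at 40 h thus lay within the vehicle range for S phase genes. Among the NSC remnants it was the lowest there as well, at 2.48 against 2.88 and 2.66.

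Mitotic entry genes were called higher for 17 of 18 in both baseline comparisons, with medians of 5.57 and 6.59, and the 1 exception, Pttg1, which encodes securin, was at -0.82 ± 0.21 (log2, SE, adjusted p = 0.015, edgeR) with vehicle. The mean log2 CPM of the 6 genes minus that of the mitotic list was -0.59 ± 0.15 at baseline, -0.80 ± 0.04 in vehicle remnants and -0.88 ± 0.37 in NSC remnants (SD, n = 3). Without Cit it was -0.81 ± 0.16, -0.24 ± 0.03 and -0.16 ± 0.12, so that its direction over time turned on Cit. Cit was set aside for its small change in these data, while Pttg1 stayed in the mitotic list. The values without Cit therefore do not show that cytokinesis genes rose more than mitotic ones. By liver, the difference with all 6 genes was -0.45, -1.11 and -1.08 in NSC replicates 1 to 3 and lay between -0.84 and -0.77 in the vehicle remnants. Without Cit the difference was -0.03, -0.18 and -0.28 in NSC replicates 1 to 3 and lay between -0.26 and -0.21 in the vehicle remnants.

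**Figure D5:**
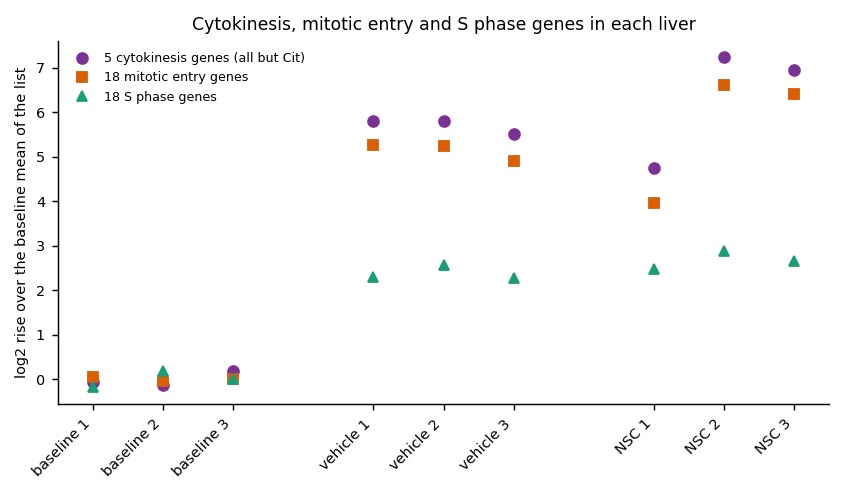
Mean log2 CPM of 5 cytokinesis genes, 18 mitotic entry genes and 18 S phase genes in each liver, drawn as the rise over the baseline mean of the same list. Cit is left out of the cytokinesis genes for its small change, while Pttg1, which did not rise, stays in the mitotic list. The cytokinesis and mitotic points fall together in NSC replicate 1 and are highest in NSC replicates 2 and 3, while the S phase points at 40 h stay between 2.28 and 2.88.

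A list of 16 genes known to govern hepatocyte ploidy was read in the same way. With vehicle 5 of the 16 were called higher and with NSC 4, where 5.03% and 5.38% of all genes were called higher, and 0 were called between NSC and vehicle, where 0.02% of all genes were. E2f7 and E2f8, atypical E2F repressors that promote polyploidization in liver, rose by 3.18 ± 0.43 (log2, SE, adjusted p = 0.000477, edgeR) and 1.81 ± 0.25 (adjusted p = 0.000583) with vehicle. Ccne1, cyclin E1, had the largest change at 3.22 ± 0.49 (adjusted p = 0.00141), and Cradd, an adaptor of the PIDDosome that senses extra centrosomes after failed cytokinesis, the smallest at -0.64 ± 0.18 (adjusted p = 0.0227). Cdkn1a, which encodes the cell cycle inhibitor p21, rose by 2.00 ± 0.53 (adjusted p = 0.0295) with vehicle and was at 1.53 ± 0.52 (adjusted p = 0.054) with NSC. Between NSC and vehicle remnants the log2 changes of the 16 ran from -0.60 ± 0.23 (SE, adjusted p = 0.187, edgeR) for Pidd1, the PIDDosome's core subunit, to 1.07 ± 0.32 (adjusted p = 0.123) for Ccne2, cyclin E2. Ccne2 also had the largest change of the 16 with NSC against baseline, at 3.99 ± 0.38 (adjusted p = 4.19e-05).

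Likeness of course over the 9 libraries was measured as the root mean square difference of centred log2 CPM, as a description. Anln and Cep55 were the closest pair of the 6 at 0.32, and Cit and Prc1 the farthest at 3.33. The genes nearest to the mean of the 6 were Kif11 at 0.19, Kif15 at 0.23 and Melk at 0.24. With Cit left out of the mean, the nearest were Aunip at 0.22, Ndc80 at 0.24 and Ttk at 0.24. By member, the nearest gene was Mad2l1 for Ect2 (0.23), Cdca2 for Racgap1 (0.17), Hmmr for Prc1 (0.30), Aunip for Anln (0.23) and for Cep55 (0.36), and Tspan3 for Cit (0.12). Mad2l1 is part of the spindle assembly checkpoint, Cdca2 recruits a phosphatase to chromatin and Hmmr acts on spindle microtubules, while Tspan3 is a membrane protein of the tetraspanin family. The libraries share their groups, so that a gene that rose by a like amount with regeneration comes near a member by this measure.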

How the data were processed

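Bulk RNA-Seq of 9 mouse livers was analysed. The authors aligned stranded paired-end reads with STAR and deposited raw counts per gene from Subread, unnormalized and without pooling, and per the labels the tools were STAR 2.6.1 and Subread 1.5.1. A human build is named there, while the deposited gene identifiers and coordinates are mouse ones. Deposited FPKM values are the authors' counts divided by gene length and depth, and recomputing the values above 1 left a largest relative difference of 4.96e-10.

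Counts were fitted in R 4.3.3 with edgeR 4.0.16 and limma 3.58.1 (TMM factors, filterByExpr, robust quasi-likelihood test, all 9 libraries, group as the only term), with Benjamini-Hochberg adjustment over 15024 genes. Calls required an adjusted p below 0.05 together with a log2 fold change beyond 1.5 in either direction. CPM were scaled by TMM, log2 CPM used a prior count of 2, and intervals are 95%. DESeq2 1.42.0 and the other alternatives are described in the closing section. The steps were tested on simulated data. Promoters were searched in Python 3.11.15 with pandas 2.3.3.

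The genes and lists were chosen with earlier results of these data known. The genes named are the 6 members, a partner of each, the largest and smallest change of each role and of the ploidy list, E2f7, E2f8, Cdkn1a, and the genes nearest in course. Sept11, Kif20a, Shcbp1, Tsg101, Chmp4b, Vps4a, Pttg1, Pidd1 and Ccne2, and Nusap1 and Myh14 where named for other reasons, were chosen after their values were seen. The same holds for Spp1, Epcam, Krt19, Krt7 and the stellate markers where they are given singly. Septins and formins listed under altered or older names were matched by Ensembl identifier. Chmp1b was not analysed here. Genes that overlap a member had at most 6 counts in all. Replicates are separate samples of a group, and p-values measure the spread between them, estimated per gene over all 3 groups. The SE and p of vehicle against baseline thus also carry the spread of the NSC group. For Ect2 that adjusted p (edgeR) was 0.00228, but 9.45e-09 without NSC replicate 1 and 4.25e-07 with only the 2 groups compared. For Cit the values were 0.0211, 0.0136 and 0.0134 in the same order.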

Additional observations from a re-analysis of the deposited data

How the results depend on the processing

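With 3 livers per group and down to 0 counts at baseline for Cep55, fold changes against baseline are known in direction more closely than in size, and differences between NSC and vehicle remnants were limited by the spread of the NSC group. The log2 fold changes of the 6 genes kept their direction and their side of the call in all 99 values recomputed for each of the 3 comparisons. The count of called members was 5, 5 and 0 under each alternative, except that with at least 10 counts in every library it was 2 in both baseline comparisons, because only 3 of the 6 genes were then tested, and that with no fold threshold it was 6 with vehicle against baseline. That filter left 7 other cytokinesis genes called in both baseline comparisons, 35 being tested, and 596 and 704 of all genes. By adjusted p with no fold threshold, 25 other cytokinesis genes passed with NSC against baseline, and of all genes 3564, 5207 and 6 passed in the 3 comparisons. Between NSC and vehicle remnants, all genes called numbered 45 with DESeq2, 61 with the exact test, 1 with library size only, 20 with no filter and 5 with only the 2 groups compared. With 1 library left out they numbered between 0 (without vehicle replicate 2, NSC replicate 2 or NSC replicate 3) and 181 (without NSC replicate 1), with 1 without baseline replicate 1 or vehicle replicate 1 and 16 without vehicle replicate 3. Other cytokinesis genes called there numbered 0 to 3, the 3 being without NSC replicate 1. With the median of the mitotic list in place of its mean, the difference in vehicle remnants was -0.89. With library size alone the median log2 fold change of all genes with NSC was 0.15 against baseline and 0.14 against vehicle, and relative to these shifts no member changed direction. Apart from the number of genes tested and of libraries, the causes were not tested.

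With the replicate number as a term (replicate block), 5, 5 and 0 members, 15, 15 and 0 other cytokinesis genes and 1079, 1189 and 5 of all genes were called in the 3 comparisons. The deviations of same-numbered livers correlated between -0.05 and 0.13, not all above 0.1, and the livers were not paired in the main fit. Correlations from 3 livers per group cannot show whether same-numbered samples came from the same mouse.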
